A study of Homo sapiens with 4 samples.

Results

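The genes described here build, load and gate the primary cilium, the single antenna-like projection that most resting vertebrate cells carry. They were taken by symbol from a list of 45 genes, and a gene entered when the array held at least 1 probe set, the group of short probes that reads a transcript, annotated to it alone. That held for 44 of the 45, of 19775 genes with a probe set of their own in all. TTC21B, an IFT-A subunit, had none. The list was proposed with results of these arrays in view, so all counts and values below describe the genes and were not tested.

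RNA was measured in Panc1 cells, a human cell line from a pancreatic duct carcinoma, on 4 Affymetrix arrays with 1 array for each condition. The conditions were romidepsin plus tamoxifen (the combination), romidepsin alone, tamoxifen alone and no drug, and cells had been exposed for 24 h. Romidepsin is an inhibitor of class I histone deacetylases, so that acetyl marks stay on histones, and tamoxifen binds estrogen receptors and blocks or stimulates them by tissue. Doses, and whether untreated cells received a vehicle, are not given in the sources used here. Only RNA was measured, and no cilia were counted.

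A cilium is a membrane-covered bundle of microtubules that grows from a centriole docked at the cell surface in cells that have left the division cycle, and it is taken down again before mitosis. Its parts are carried by intraflagellar transport (IFT). The IFT-B complex travels to the tip with the kinesin-2 motor, and the IFT-A complex returns with the dynein-2 motor and also admits membrane proteins. The BBSome, a coat of Bardet-Biedl syndrome proteins, rides on these trains and carries receptors out of the cilium, and the transition zone at the base acts as the gate. Cultured pancreatic cancer cells are known to carry few cilia.

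Values are signals, the brightness of a probe set after each array was scaled on its own. The median of all signals, 66.4, was used as a floor below which signals have no order, and a gene was measured in a comparison when at least 1 of the 2 arrays lay above it. A gene is said to have risen or fallen when its signal differed at least 2-fold after values below the floor were set to it, which is 1 on the log2 scale. A fold against an array at the floor is written as at least N-fold. With 1 array per condition there is no replicate spread and no test, and the folds hold for these arrays only. The technical spread that could be seen was how far 2 probe sets of the same gene differed in log2 fold, with a median between 0.22 and 0.29. In bulk RNA, fewer cells of a type and less RNA per cell cannot be told apart.

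All 44 genes lay above the floor with the combination and with romidepsin, and 43 with tamoxifen and in untreated cells. The exception was DNAI7. The median signal of the genes was 750 with the combination, 557 with romidepsin, 484 with tamoxifen and 417 in untreated cells. The whole arrays moved the same way to a lesser degree, with median signals of 73.0, 67.9 and 66.0 under the 3 treatments in that order and 59.5 in untreated cells. The log2 ratio of the array medians over the untreated array was thus 0.30 with the combination, 0.19 with romidepsin and 0.15 with tamoxifen. Of 5 markers of duct and epithelial cells measured, KRT7, KRT8, KRT18 and SOX9 lay above the floor on all 4 arrays, while KRT19, a keratin of duct cells, lay below it on all 4. These markers moved with the drugs, but not all in the same direction. KRT7 read 202 with the combination, 513 with romidepsin, 523 with tamoxifen and 780 in untreated cells. In the same order of arrays KRT18, the largest part of the sum below, read 11344, 19644, 16359 and 25361. KRT8 read 4153, 10766, 6125 and 9154, and SOX9 read 4537, 8131, 5670 and 6686. KRT8 and SOX9 were thus higher with romidepsin than in untreated cells, while KRT7 and KRT18 were lower. The summed signal of the 5 markers was 20242 with the combination, 39058 with romidepsin, 28679 with tamoxifen and 41989 in untreated cells. The ratio of 3′ to 5′ actin signal, a sign of RNA integrity, was 1.73 on the combination array, against 1.18 with romidepsin, 1.39 with tamoxifen and 1.21 in untreated cells. The same ratio for GAPDH was nearly level, at 1.07 with the combination, 1.03 with romidepsin, 1.04 with tamoxifen and 1.07 in untreated cells. The part of these markers and ratios in the results was not tested.

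Some RFX transcription factors are known to switch on ciliary genes through a paired site in their promoters, the X-box. RefSeq windows (GRCh38.p14, 250 bases before to 50 after a transcription start) were held for 40 of the 45 listed genes, and not for IFT22, WDR35, BBS9, TCTN2 and TMEM67. The X-box was searched as the arms GTTNCC and GGNAAC with 0 to 3 bases between them, and a single arm as GTTGCC, both on either strand, so that an X-box can hold single arms too. An X-box lay in windows of ARL6, IFT122, TCTN1 and TCTN3, which is 10% of the 40 genes, against 0.905% of 27305 genes with a window. These 4 matches are shown in capitals within 30 bases, read along the strand of the gene.
ARL6: aagctcctGTTGCCAAGGGAACggtgcctg
IFT122: gcatgtacGTTGCCAGGGGTAACgcaggta
TCTN1: gctgtcgcgGTTGCCGGGCAACgcgctgtc
TCTN3: tcactgacgGTTGCCAGGCAACggaggcac
These stretches lie at chr3:97764726-97764755 and chr3:129440204-129440233 on the plus strand for ARL6 and IFT122. They lie at chr12:110614120-110614149 on the plus strand for TCTN1 and chr10:95694122-95694151 on the minus strand for TCTN3. Counted from the first transcribed base as 0, the match starts at -24 in ARL6, -12 in IFT122, 0 in TCTN1 and -215 in TCTN3.

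The single arm was held by 20 of the 40 genes, or 50%, against 14.6% of all 27305 genes. Per window the share was 46.9% of 49 windows of the listed genes and 12.2% of 35116 windows in all. The G and C content before the start was also higher in the listed genes, at 61.6% against 58% over all genes. A few single arms are shown, chosen from genes that rose on these arrays (the first 6) and from genes that did not (the last 2), with GTTGCC or its complement GGCAAC in capitals.
DYNC2H1: gtgccccgagagGGCAACgcccaccgcgcg
DYNC2LI1: cgtcgctcccatGGCAACccagaaggcctc
IFT88: gattccgcgcttGGCAACggctcggcgtcg
IFT81: ggcctagcaaccGTTGCCaaggagctcgac
BBS5: cagaggcggcccGTTGCCttggagccagag
BBS10: gaggggcttaggGTTGCCgctccaggcaca
CLUAP1: aagggtccattgGTTGCCatagagatcgtc
MKS1: tccagcgtctccGTTGCCaggaaaacagag
They lie on the plus strand at chr11:103109363-103109392 (DYNC2H1), chr2:43774019-43774048 (DYNC2LI1), chr13:20567161-20567190 (IFT88), chr12:110124345-110124374 (IFT81), chr2:169479468-169479497 (BBS5) and chr16:3500970-3500999 (CLUAP1). Those of BBS10 and MKS1 lie on the minus strand, at chr12:76348619-76348648 and chr17:58219272-58219301. A match of letters is a description of the window and shows no binding.

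Genes with a single arm did not have larger median responses over untreated cells. In the combination against untreated cells the median log2 fold was 0.92 over the 20 measured genes with the arm, of which 9 rose and 0 fell. It was 1.03 over the 19 without it, of which 10 rose and 1 fell. With romidepsin over untreated cells the medians were 0.52 with the arm and 0.62 without, and with tamoxifen over untreated cells 0.19 and 0.42. For the combination over tamoxifen the order was the other way, 0.64 with the arm and 0.40 without, and over romidepsin both medians were 0.35.

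The combination gave the most changes against untreated cells. Of 44 measured genes, 21 rose and 1 fell, or 47.7% higher, where 19.8% of all 13802 measured genes rose and 14.4% fell. The median log2 fold was 0.92 over the 44 genes and 0.09 over all measured genes. Romidepsin against untreated cells gave 12 rises and 0 falls among 44 genes, or 27.3%, where 14.3% of all 13619 genes rose and 9.27% fell, with medians of 0.55 and 0.06. Tamoxifen against untreated cells gave 6 rises and 0 falls among 43 genes, where 3.70% of all 13051 genes rose and 1.07% fell, with medians of 0.42 and 0.01. The tamoxifen rises all lay between 1.01 and 1.15 on the log2 scale, closer to the limit than the usual distance between probe sets, and the scaling decides their number: 1 under quantile normalization and 11 under scaling by spike-in signals. With each array centred on its median signal, 14 genes rose and 2 fell with the combination, where 14.7% of all genes rose and 20.9% fell. With romidepsin 8 rose and 0 fell under that centring, where 11.4% of all genes rose and 12.7% fell, and with tamoxifen 2 rose and 0 fell, where 2.21% rose and 2.39% fell. The 7 combination rises lost under centring were AHI1, BBS5, IFT172, IFT46, IFT52, IFT81 and RPGRIP1L. The median of the listed genes stayed above that of all genes by 0.80, 0.47 and 0.39 in those 3 comparisons.

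**Figure D1:**
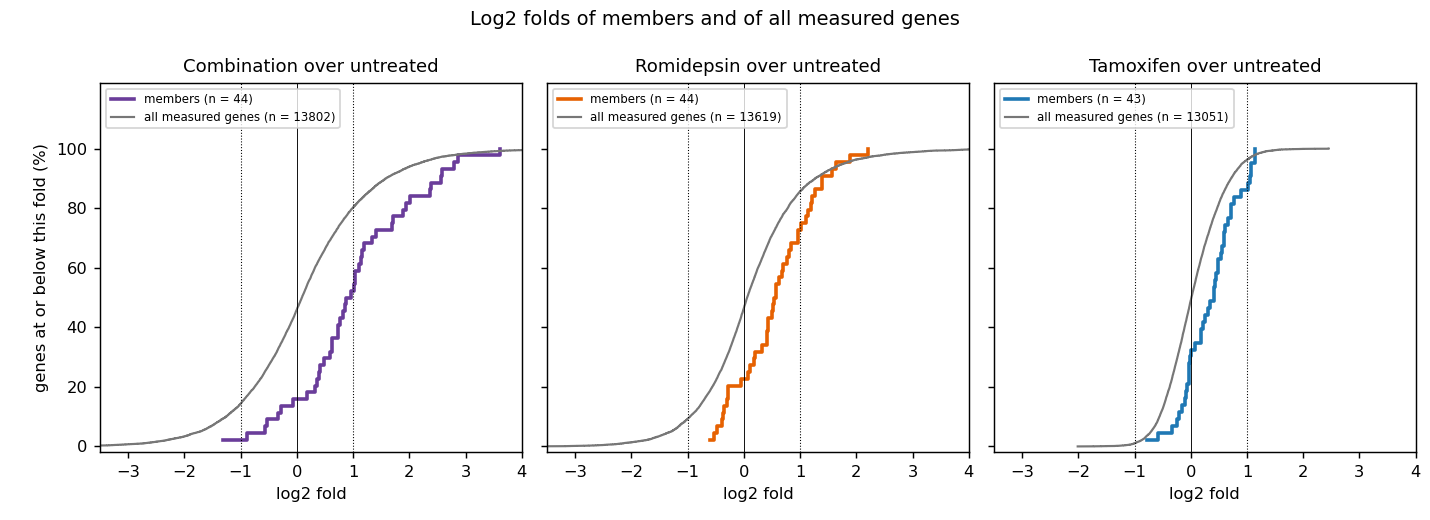
Share of genes (percent) at or below each log2 fold against untreated cells, for the combination, romidepsin and tamoxifen, with the ciliary genes as coloured steps and all measured genes as a grey line. Dotted lines mark 2-fold, and the tails of the grey line run beyond the axis. The coloured steps lie to the right of the grey line through most of each panel, with medians of 0.92, 0.55 and 0.42 against 0.09, 0.06 and 0.01.

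The IFT-B complex, whose subunits build the trains that leave the cell body, was the largest role group. By count it held the most rises with the combination. There 9 of the 13 measured IFT-B genes rose against untreated cells, 0 fell, and the group's median was 1.15 on the log2 scale. By share dynein-2 stood higher, at 2 of 2 genes, and 19.8% of all measured genes rose. In IFT-B romidepsin alone gave 5 rises, as many as among the 10 genes of the BBSome group, and tamoxifen alone gave 2. Among all measured genes 14.3% rose with romidepsin and 3.70% with tamoxifen. IFT57, a peripheral subunit also known as HIPPI, read 2554 with the combination, 1582 with romidepsin, 796 with tamoxifen and 428 in untreated cells. These signals are 5.97-fold higher with the combination and 3.70-fold higher with romidepsin, and the log2 fold of 0.90 with tamoxifen stayed under the limit. Every treated array stood above the untreated one, and the combination stood above both drugs.

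IFT80, a subunit mutated in a short-rib skeletal disorder, rose with each drug and again when the drugs were joined. It read 6259 with the combination, 2629 with romidepsin, 2641 with tamoxifen and 1191 in untreated cells. The drugs alone were almost level, at 2.21-fold and 2.22-fold above untreated cells, and the combination reached 5.26-fold. A second probe set of IFT80 gave the same order, at 5207, 1991, 2077 and 809 for the same arrays. IFT88, the subunit whose loss gives mice cystic kidneys and no cilia, read 1775 with the combination, 972 with romidepsin, 788 with tamoxifen and 480 in untreated cells. It was 3.70-fold higher with the combination and 2.03-fold higher with romidepsin.

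IFT20 and IFT22 rose with romidepsin, and the combination differed from romidepsin alone by less than 2-fold. IFT20, which also sits at the Golgi and helps send membrane proteins to the cilium, read 5364 with the combination, 3769 with romidepsin, 1874 with tamoxifen and 1654 in untreated cells. IFT22, a small GTPase-like subunit, read 3787 with the combination, 3920 with romidepsin, 1333 with tamoxifen and 1495 in untreated cells. The 2 arrays with romidepsin were thus level with each other for IFT22 and 2.62-fold (romidepsin alone) or 2.53-fold (combination) above untreated cells.

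IFT52, IFT46, IFT172 and IFT81 rose against untreated cells with the combination and with neither drug alone. IFT52, a subunit of the IFT-B core, read 3019 with the combination, 2635 with romidepsin, 1670 with tamoxifen and 1344 in untreated cells. Its log2 folds over untreated cells were 1.17 with the combination, 0.97 with romidepsin and 0.31 with tamoxifen. IFT46, another core subunit, read 536 and 474 on the combination and romidepsin arrays, against 254 with tamoxifen and 266 in untreated cells. IFT172, the largest IFT-B protein, read 568 and 446 with the combination and romidepsin, against 256 and 257 with tamoxifen and without drug. In IFT46 and IFT172 the 2 arrays with romidepsin stood above the others. IFT81, which with IFT74 binds tubulin cargo, read 523 with the combination, 328 with romidepsin, 340 with tamoxifen and 244 in untreated cells, so that neither drug alone brought it to 2-fold.

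IFT74 took another course from its partner IFT81. It read 190 with the combination, 85 with romidepsin, 253 with tamoxifen and 123 in untreated cells. Tamoxifen gave a rise of 2.07-fold over untreated cells, and the combination stood 2.23-fold above romidepsin, whereas romidepsin alone had a log2 fold of -0.53. The romidepsin signal is near the floor. IFT27, a small GTPase that links the train to the BBSome, was the IFT-B gene with the lowest combination fold and read 2191 with the combination, 2422 with romidepsin, 2510 with tamoxifen and 3150 in untreated cells. Its log2 fold of -0.52 with the combination did not reach 2-fold, and a second, dimmer probe set ran the other way, at 194 with the combination, 166 with romidepsin, 162 with tamoxifen and 97 in untreated cells. The adaptor TRAF3IP1 and the subunit CLUAP1 also stayed under the limit, with log2 folds of 0.74 and 0.59 with the combination.

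**Figure D2:**
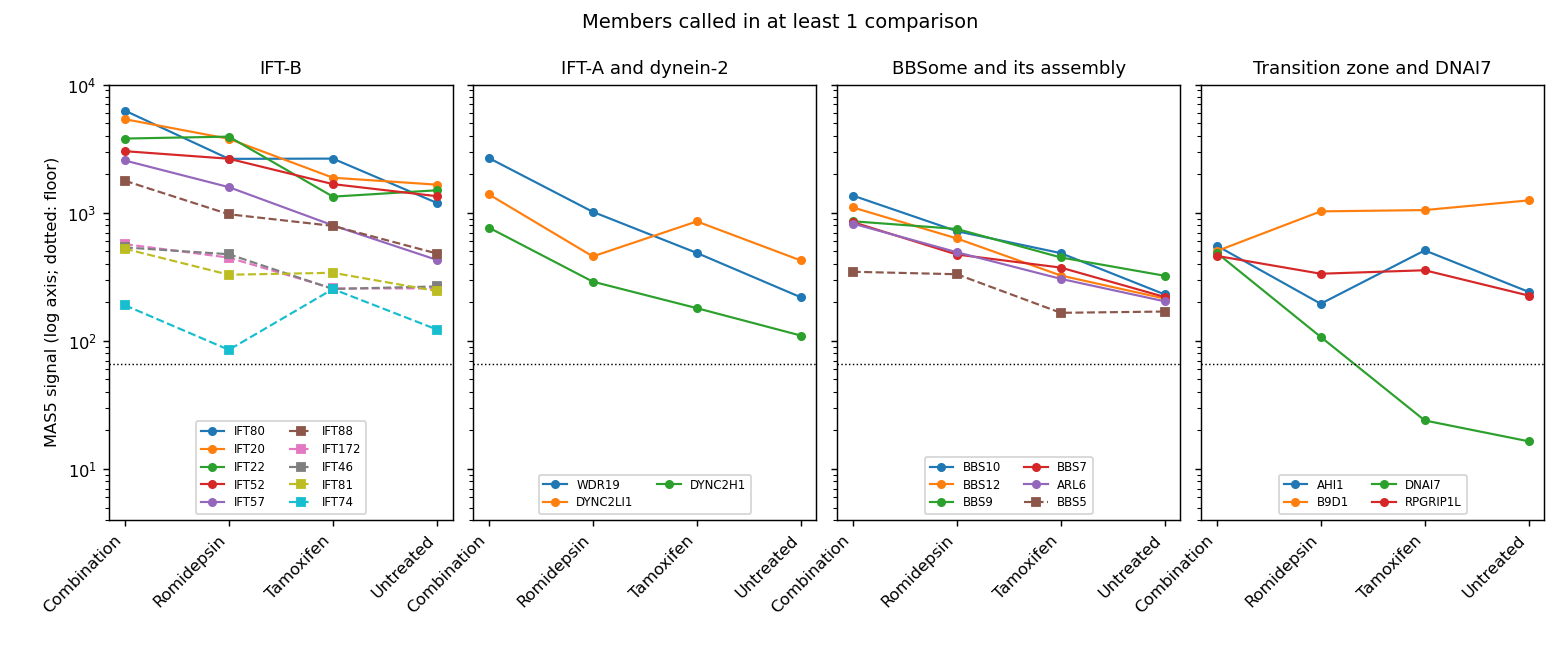
Signal (logarithmic axis) of the genes with a change in at least 1 comparison, on the combination, romidepsin, tamoxifen and untreated arrays from left to right, with 1 point per array and a line joining the points of a gene. Most lines slope down to the right, as for IFT57 with 2554 under the combination and 428 without drug, and B9D1 slopes up.

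Among the 5 IFT-A genes measured, the return complex, WDR19 alone rose. WDR19, a core subunit mutated in cranioectodermal dysplasia and nephronophthisis, read 2671 with the combination, 1015 with romidepsin, 485 with tamoxifen and 219 in untreated cells. It was 12.2-fold higher with the combination, 4.64-fold with romidepsin and 2.22-fold with tamoxifen over untreated cells, the last close to the limit and kept in 3 of 5 alternatives that gave it a value. The combination stood 2.63-fold above romidepsin and 5.51-fold above tamoxifen. The value rests on 1 probe set, since the next one of this gene was near or below the floor, at 95 with the combination, 40 with romidepsin, 39 with tamoxifen and 20 in untreated cells. When the probe sets of WDR19 were combined by their median, or those marked _s_ left out, the combination's log2 fold over untreated cells was 0.52. The 250 bases before the WDR19 start hold no GTTGCC on either strand and are shown because this gene had the highest fold of all the genes described.
WDR19: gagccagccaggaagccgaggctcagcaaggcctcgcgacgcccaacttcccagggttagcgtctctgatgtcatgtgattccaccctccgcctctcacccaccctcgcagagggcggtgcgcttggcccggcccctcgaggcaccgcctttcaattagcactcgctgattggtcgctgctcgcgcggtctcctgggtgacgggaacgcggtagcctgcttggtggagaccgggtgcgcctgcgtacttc
This stretch lies at chr4:39182279-39182528 on the plus strand of GRCh38.p14.

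The other IFT-A genes did not follow WDR19. IFT43 read 1735 with the combination, 1845 with romidepsin, 1555 with tamoxifen and 1302 in untreated cells. IFT122, a core subunit whose promoter window holds an X-box, read 431 with the combination, 504 with romidepsin, 372 with tamoxifen and 641 in untreated cells. The untreated array was thus the brightest for IFT122, with log2 folds of -0.57 with the combination and -0.78 with tamoxifen, although a dimmer probe set gave 0.33 with tamoxifen. IFT140 read 126, 203 and 103 under the combination, romidepsin and tamoxifen, against 153 in untreated cells. WDR35, which helps admit membrane proteins, read 367 with the combination, 202 with romidepsin, 278 with tamoxifen and 281 in untreated cells.

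Both listed genes of dynein-2, the motor of the return trip, rose with the combination. Among its other subunits, outside the 44 genes and named after their values were seen, the intermediate chain DYNC2I1 was 2.89-fold higher with the combination than without drug. The intermediate chain DYNC2I2 went the other way, at 984 with the combination, 1508 with romidepsin, 1797 with tamoxifen and 2462 in untreated cells, or 2.50-fold lower. DYNC2H1, its heavy chain, read 765 with the combination, 290 with romidepsin, 180 with tamoxifen and 110 in untreated cells. It was 6.96-fold higher with the combination and 2.64-fold higher with romidepsin, while its log2 fold of 0.71 with tamoxifen fell short. The other probe sets of DYNC2H1 were near or below the floor, and their median with this one gave a log2 fold of 0.52 for the combination over untreated cells. The combination stood 2.64-fold above romidepsin and 4.25-fold above tamoxifen. DYNC2LI1, the light intermediate chain that holds the heavy chain, read 1390 with the combination, 456 with romidepsin, 855 with tamoxifen and 424 in untreated cells. Here romidepsin alone left the signal close to the untreated one, tamoxifen alone was 2.02-fold above it, and the combination was 3.28-fold above it. A second probe set gave 1307, 547, 810 and 351 in the same order of arrays, while a dimmer one, at 146, 83, 99 and 102, had no tamoxifen rise.

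The BBSome group here also takes in its assembly factors and its recruiter. With the combination all 10 genes had log2 folds above 0 over untreated cells, 6 rose, and the median was 1.22. Among all measured genes 54.0% lay above 0 and 19.8% rose. Romidepsin alone gave 5 rises and a median of 1.03, where 14.3% of all measured genes rose. Tamoxifen alone gave 1 rise, where 3.70% of all measured genes rose, too few to set the group apart. BBS10, a chaperonin-like protein that helps assemble the BBSome, read 1361 with the combination, 717 with romidepsin, 483 with tamoxifen and 230 in untreated cells. It rose 5.92-fold, 3.12-fold and 2.10-fold under these treatments. BBS12, its partner in assembly, read 1100 with the combination, 629 with romidepsin, 323 with tamoxifen and 214 in untreated cells, and was 5.15-fold higher with the combination. In both genes the arrays fell in the same order.

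ARL6, the GTPase that brings the BBSome to membranes and a gene with an X-box at -24, read 822 with the combination, 492 with romidepsin, 304 with tamoxifen and 203 in untreated cells. It was 4.05-fold higher with the combination and 2.42-fold higher with romidepsin. BBS7, a BBSome core subunit, read 845 with the combination, 472 with romidepsin, 373 with tamoxifen and 220 in untreated cells, a 3.85-fold difference between the combination and no drug. BBS9, a core subunit too, read 857, 747 and 447 under the combination, romidepsin and tamoxifen, against 322 in untreated cells. BBS5, a subunit that binds phosphoinositides, read 346 with the combination and 331 with romidepsin, against 165 with tamoxifen and 169 in untreated cells. For BBS5 the arrays split by romidepsin alone. BBS2 read 850 with the combination, 646 with romidepsin, 816 with tamoxifen and 610 in untreated cells, and BBS1, BBS4 and TTC8 likewise stayed under 2-fold in every comparison.

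The transition zone genes, the gate at the base, moved in both directions. With the combination 2 of 11 rose (18.2%) and 1 fell, close to the 19.8% and 14.4% of all measured genes, and the median log2 fold over untreated cells was 0.33. Romidepsin alone changed 0 of them, where 14.3% of all measured genes rose and 9.27% fell, and their median was -0.04. AHI1, the Jouberin protein, read 553 with the combination, 195 with romidepsin, 508 with tamoxifen and 241 in untreated cells. The 2 arrays with tamoxifen were the bright ones, with a rise of 2.30-fold for the combination and 2.11-fold for tamoxifen over untreated cells, and the combination stood 2.84-fold above romidepsin. Each of the 2 rises over untreated cells was kept in 3 of 6 alternatives that gave it a value. A second, dimmer probe set gave 224, 99.5, 173 and 49.2 in the same order of arrays. Its log2 fold with romidepsin was 0.58, where the brighter one gave -0.31. RPGRIP1L, a scaffold of the zone, read 460 with the combination, 334 with romidepsin, 355 with tamoxifen and 225 in untreated cells, and rose with the combination alone, at 2.04-fold.

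B9D1, a B9-domain protein of the same gate, was the 1 gene of the 44 that fell. It read 501 with the combination, 1024 with romidepsin, 1048 with tamoxifen and 1247 in untreated cells. Either drug alone left it near the untreated level, and the combination was 2.49-fold lower than no drug, 2.04-fold lower than romidepsin and 2.09-fold lower than tamoxifen. A second probe set gave 164, 322, 375 and 473 in the same order of arrays, but another, dimmer one ran the other way, at 94, 80, 56 and 36. TMEM231, a membrane partner of B9D1, read 418 with the combination, 637 with romidepsin, 732 with tamoxifen and 777 in untreated cells, a log2 fold of -0.89 that did not reach 2-fold. TCTN3, a tectonic with an X-box, read 4683 with the combination, 4326 with romidepsin, 2502 with tamoxifen and 2547 in untreated cells. MKS1, which shares a complex with B9D1, read 207, 165 and 187 under the combination, romidepsin and tamoxifen, against 216 in untreated cells.

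Of the remaining genes, DNAI7, an axonemal protein of motile cilia, lay below the floor without drug and above it with romidepsin and the combination. It read 486 with the combination, 107 with romidepsin, 24 with tamoxifen and 16 in untreated cells, so that the combination was at least 7.33-fold above untreated cells and 4.53-fold above romidepsin. ARL3, the GTPase that unloads lipid-modified proteins inside the cilium, read 7754 with the combination, 7326 with romidepsin, 5343 with tamoxifen and 4574 in untreated cells, all within 2-fold. OFD1, a protein of the centriole end, had a log2 fold of 0.96 with the combination.

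**Figure D3:**
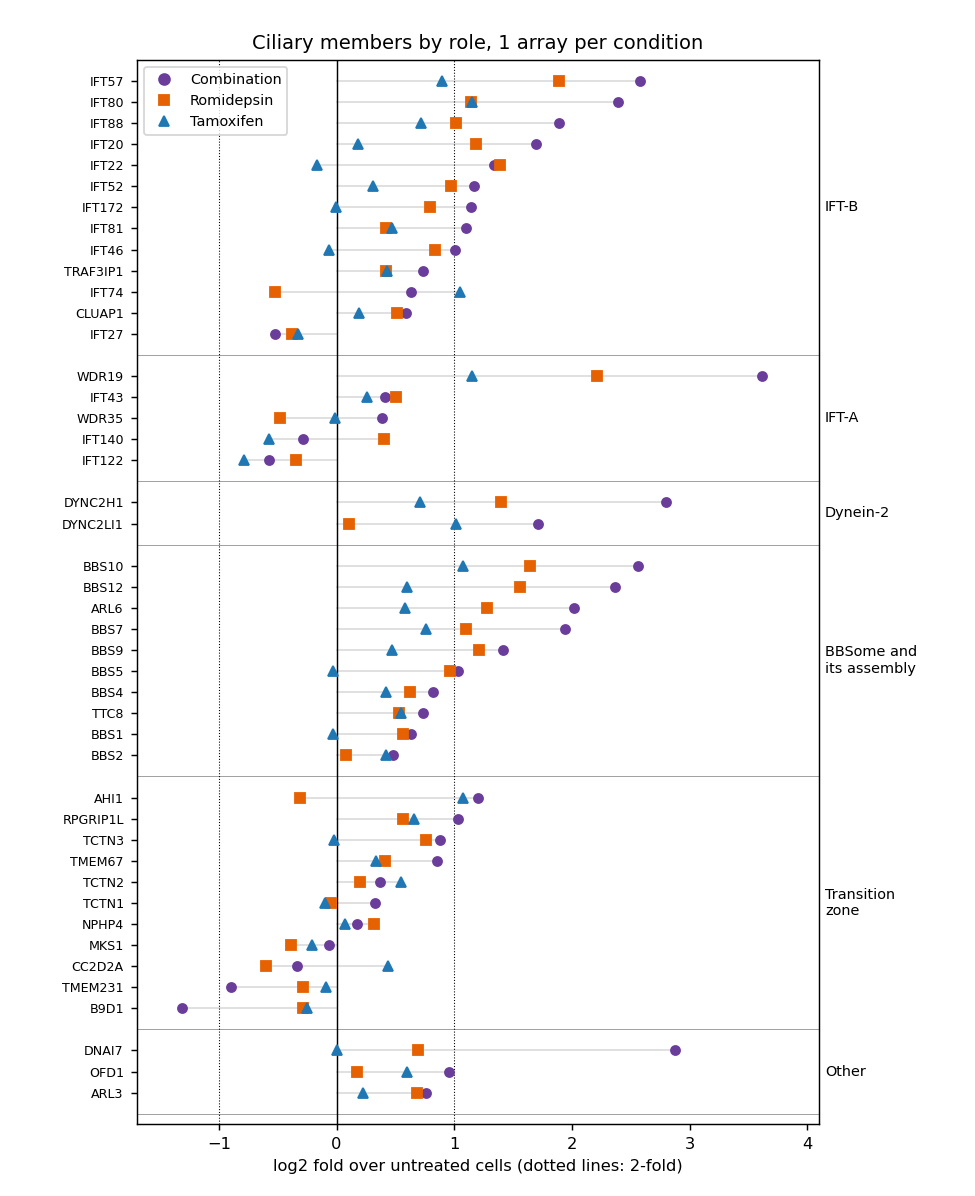
Log2 fold over untreated cells of each ciliary gene, grouped by role, with 1 point each for the combination, romidepsin and tamoxifen. WDR19 at 3.61 with the combination is the farthest to the right and B9D1 at -1.32 the farthest to the left; dotted lines mark 2-fold.

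Set against each single drug, the combination stood higher for several genes. Over romidepsin 7 of 44 rose and 1 fell, or 15.9% higher, where 4.07% of all 13726 genes rose and 2.27% fell, and the medians were 0.34 and -0.03. The genes that rose when tamoxifen was added to romidepsin were WDR19, DYNC2H1, DYNC2LI1, IFT74, IFT80, AHI1 and DNAI7, and both dynein-2 genes are among them. Over tamoxifen 15 of 44 rose and 1 fell, or 34.1% higher, where 14.8% of all 13893 genes rose and 11.8% fell, and the medians were 0.53 and 0.05. With centred arrays, 2.91% of all genes rose and 3.36% fell over romidepsin, and 12.3% rose and 14.6% fell over tamoxifen. The numbers of ciliary genes that rose were then 7 and 13. The combination was at least 2-fold above both single drugs for WDR19, DYNC2H1, IFT80 and DNAI7. Among genes above the floor on all arrays, this held for 3 of 43 ciliary genes and for 1.25% of all 11058 genes.

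Sorted by pattern, 23 of the 44 genes changed in at least 1 comparison and 21 in none. Over untreated cells BBS10, IFT80 and WDR19 rose with each drug alone. A further 9 genes rose with romidepsin and not with tamoxifen, and AHI1, DYNC2LI1 and IFT74 rose with tamoxifen and not with romidepsin. The 7 genes that rose with the combination alone were BBS5, DNAI7, IFT172, IFT46, IFT52, IFT81 and RPGRIP1L. This class depends on the limit, and all of these but DNAI7 lost the combination rise with centred arrays. IFT52 and BBS5 each had a log2 fold of 0.97 with romidepsin alone, just short of the limit. Over the 43 ciliary genes and all 11058 genes above the floor on all arrays, 22 ciliary genes and 43.2% of all genes changed in at least 1 comparison. A rise with each drug was seen in 3 ciliary genes and 1.49% of all genes, and a rise with romidepsin and not tamoxifen in 9 and 10.6%. A rise with tamoxifen and not romidepsin was seen in 3 and 2.15%, and a rise with the combination alone in 6 and 6.76%. The combination array was the brightest of the 4 for 32 of the 44 genes. Among genes above the floor on all arrays, it was the brightest for 31 of 43 ciliary genes and for 28.4% of all 11058 genes. The untreated array was the brightest for B9D1, IFT122, IFT27, MKS1 and TMEM231.

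Each drug's effect can be read on 2 pairs of arrays that share none, without and with the other drug. For romidepsin, the log2 folds over untreated cells and those of the combination over tamoxifen had the same sign in 37 of 43 genes, with Pearson's r = 0.90 across genes. Over all 11058 genes the same sign was seen in 85.0%, with r = 0.90. For tamoxifen, the folds over untreated cells and those of the combination over romidepsin had the same sign in 33 of 43 genes, with r = 0.81, against 74.9% and r = 0.66 over all genes. Genes on 1 array share its scaling and are not independent, so these values are descriptions.

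**Figure D4:**
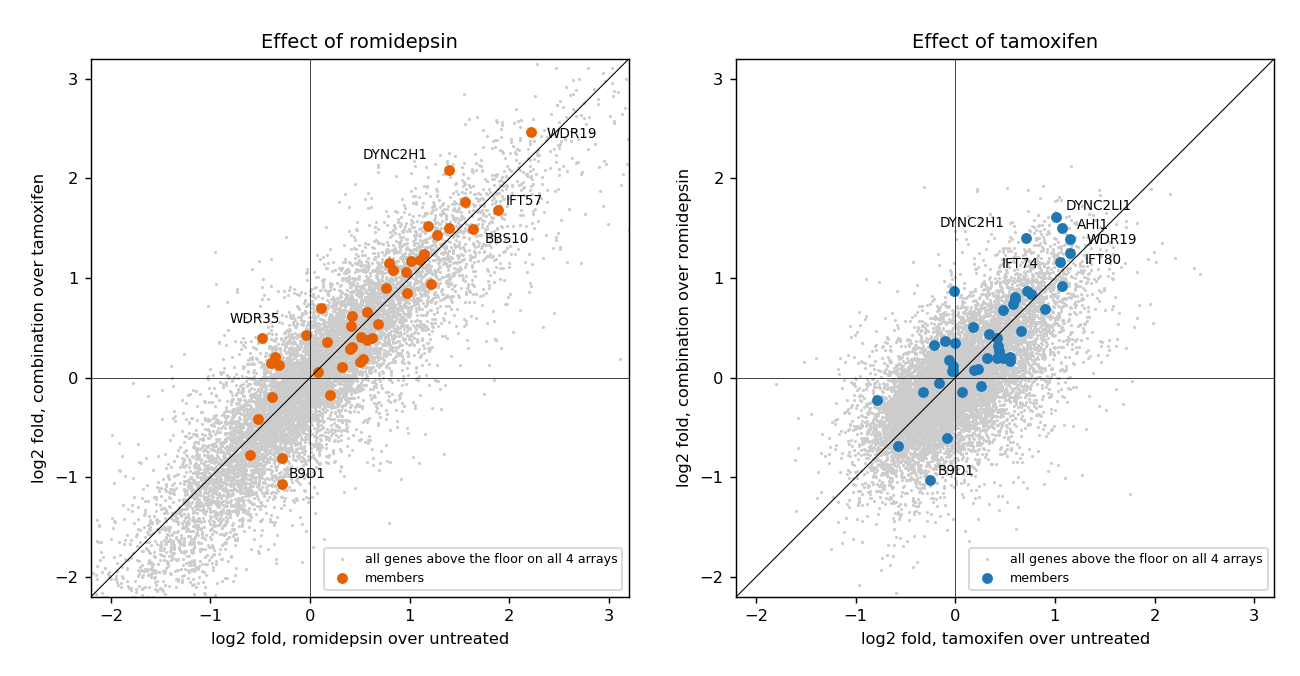
Log2 fold of each drug without the other (horizontal) and in the presence of the other (vertical), for romidepsin on the left and tamoxifen on the right, with ciliary genes as coloured points over all genes above the floor on all 4 arrays in grey. The axes are cut, so that the most changed genes of the arrays are not drawn. DYNC2H1 lies above the line of equal effect and B9D1 below it. A gene's distance from the line is the same in both panels by construction, since it comes from the same 4 signals.

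The log2 fold of the combination less the sum of the 2 single-drug folds gives the departure from additive effects. Its median was 0.10 over the 43 genes above the floor everywhere and -0.04 over all 11058 genes. No ciliary gene (0 higher, 0 lower) departed by 2-fold, where 0.886% of all genes did so upwards and 2.23% downwards. The departures that came nearest were 0.88 for WDR35, 0.69 for DYNC2H1 and 0.60 for DYNC2LI1 above additive, and -0.78 for B9D1 and -0.52 for TMEM231 below it. These rest on 1 probe set per gene. A second one of WDR35 had log2 folds of 0.58 with the combination, 0.20 with romidepsin and 0.37 with tamoxifen, close to additive. For DYNC2LI1 a second one gave 1.90, 0.64 and 1.21, also close to additive. A dimmer one of DYNC2LI1 gave 0.52, -0.30 and -0.04, above additive.

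Long genes rose somewhat more often on these arrays. The median gene length was 55.3 kb for the ciliary genes and 28.4 kb for all measured genes in the combination against untreated cells. Ciliary genes that rose had a median of 56.4 kb and the others 52.3 kb, against 43.9 kb and 26.0 kb over all genes. Spearman's rho of length with the log2 fold was 0.16 across ciliary genes and 0.14 across all genes. The part of length in the result was not tested.

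The rest of the pathway was taken from 5 further lists, with up to 4 genes named by the size of their change with the combination. The shares of all measured genes in the combination against untreated cells, 19.8% higher and 14.4% lower, stand beside all counts of these lists. Of 29 further genes of the ciliary machinery, 8 rose and 4 fell over untreated cells, and their median was 0.39 on the log2 scale. KIF3A, a motor subunit of kinesin-2, read 2849 with the combination, 1265 with romidepsin, 657 with tamoxifen and 438 in untreated cells, a log2 fold of 2.70 for the combination over untreated cells. CEP290, a large tether of the transition zone, read 898 with the combination, 293 with romidepsin, 259 with tamoxifen and 200 in untreated cells, or 4.49-fold higher. LZTFL1, which regulates BBSome traffic, was 4.20-fold higher and RPGR, a regulator at the ciliary base, 3.39-fold higher. The 4 that fell, named after their values were seen, were B9D2 (3.08-fold), DYNC2I2 (2.50-fold), TMEM138 (2.32-fold) and INPP5E (2.19-fold).

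Hedgehog signalling runs through the cilium in vertebrates. Of 10 measured Hedgehog genes, 1 rose and 1 fell with the combination, no more than the shares of all measured genes. The coreceptor CDON read 1239 with the combination, 997 with romidepsin, 299 with tamoxifen and 221 in untreated cells, while the transcription factor GLI2 read 248, 293 and 664 under the same treatments, against 638 without drug. Among 8 measured genes of the list of RFX and other transcription factors 1 rose, RFX6, at least 2.70-fold. It lay below the floor in untreated cells and with tamoxifen, and a part in ciliary genes was not tested. FOXJ1, the master factor of motile cilia, lay below the floor on all arrays.

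Of 10 measured genes that take cilia down or hold their assembly back, 4 fell and 1 rose with the combination, where 14.4% of all measured genes fell and 19.8% rose, and the median was -0.55 on the log2 scale. PLK1, a mitotic kinase that also promotes disassembly, read 125 with the combination, 395 with romidepsin, 1145 with tamoxifen and 2186 in untreated cells, or 17.4-fold lower. AURKA, the mitotic kinase that starts disassembly, read 967 with the combination, 1474 with romidepsin, 5601 with tamoxifen and 7391 in untreated cells, or 7.64-fold lower. These kinases are also cell-division genes. NDE1, a centrosomal brake on cilium length, was 3.42-fold lower, and NEDD9, the scaffold that activates AURKA, went the other way and was at least 7.77-fold higher.

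Of 36 genes of the axoneme of motile cilia, 24 were measured. With the combination 9 rose (37.5%, against 19.8% of all measured genes) and 0 fell, and the median was 0.53 on the log2 scale. A gene below the floor in untreated cells was measured here only when the combination array lay above it, so its fold could only be above 0. Among the rises, DNAI3, DNAAF1, RSPH1 and RSPH4A were such genes. The count of falls, the share and the median were thus partly set by this rule, which also applied to all measured genes. RSPH1, a radial spoke protein, read 839 with the combination, 412 with romidepsin, 97 with tamoxifen and 46 in untreated cells, at least 12.6-fold higher. ROPN1L, DNAI4 and DNAH3 were 7.63-fold, 6.51-fold and 5.94-fold higher. DNAI4 read 67.2 in untreated cells, at the edge of the floor, and DNAH3 was read by a probe set marked _x_. Of 5 markers of multiciliated cells with a probe set, 3 lay above the floor with the combination, 2 with romidepsin, 2 with tamoxifen and 1 in untreated cells, with summed signals of 1008, 620 and 256 under the 3 treatments and 194 in untreated cells. FOXJ1 and TEKT1 were below the floor on all 4, and RSPH1, itself in the list above, made up most of the sum with the combination. DNAI1 was lowest with the combination, at 73.5, against 124 with romidepsin, 94.1 with tamoxifen and 116 in untreated cells. DNAH9 lay above the floor with the combination alone, at 76.8, near the floor. The part of these markers in the result was not tested. Tamoxifen alone changed 0 measured genes in any of the 5 lists, where 3.70% of all measured genes rose and 1.07% fell. With 28, 10, 5, 9 and 18 genes measured in the lists, shares of that size would give few changes.

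**Figure D5:**
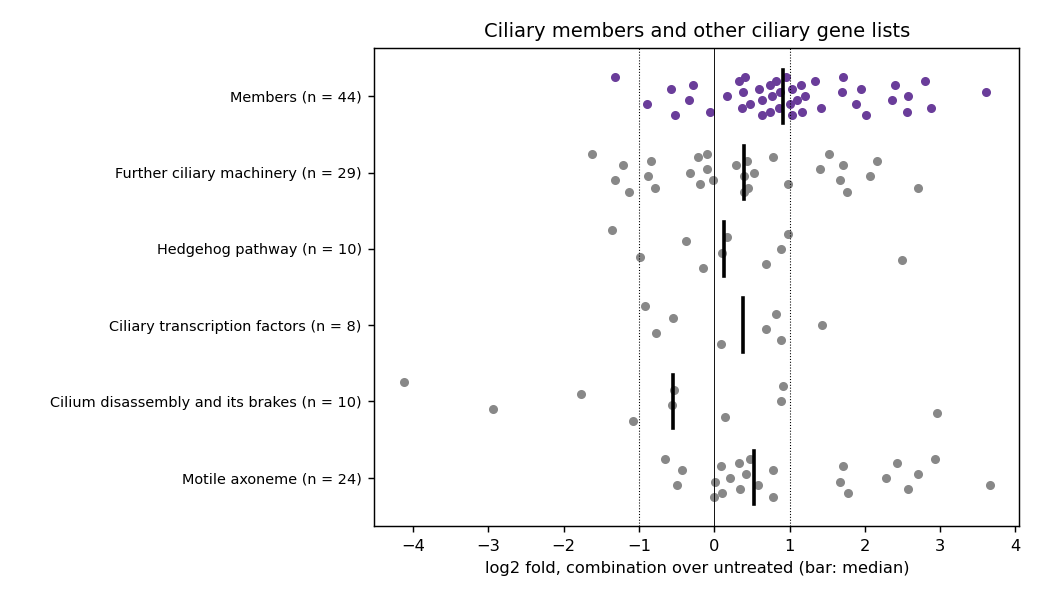
Log2 fold of the combination over untreated cells for the 44 ciliary genes (purple) and the 5 further lists (grey), with 1 point per measured gene and a bar at each median. The medians are 0.92 for the 44 genes, 0.39 for further machinery, 0.14 for Hedgehog, 0.39 for transcription factors, -0.55 for disassembly and 0.53 for the motile axoneme.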

How the data were processed

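Total RNA of Panc1 cells was labelled from 100 ng with a 3′ in vitro transcription kit, per the labels' protocols. The authors deposited 1 intensity per probe set and array on a linear scale. The tool was MAS5 (per the submitters' processing notes), of unstated version. The trimmed mean of the deposited intensities, leaving out 2% at each end, was equal on all 4 arrays, so each array was scaled on its own. Sample groups came from the labels, with 1 array each. Columns of other samples numbered 0.

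Of 54675 probe sets, 62 were controls. The platform annotation named 1 gene for 41091 of the others, several for 1801 and none for 11721. Entrez IDs matched the RefSeq gene table for 41037, and 0 symbols changed. Each gene was read by the brightest of its own probe sets, by mean log2 intensity. Signals under the median of all, 66.4, were set to it, and the fold and log2 fold were taken. Array number, not depth, limits the precision. With 1 array per group no test was made.

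The member genes, the further lists and the comparisons were chosen with earlier results of these data known. Genes named with all values were those changed at least 2-fold in any of the 5 comparisons plus the brightest of each role group, and of each further list up to 4. Other members may be named with values. The 7 alternatives were 3 scalings, 2 floors and 2 rules for probe sets. Promoter windows came from RefSeq (GRCh38.p14). Calculations used Python 3.11.15, numpy 2.4.6 and pandas 2.3.3, figures matplotlib 3.10.9, and the steps were tested on simulated data.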

Additional observations from a re-analysis of the deposited data

Results flagged for a closer look

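WDR35, an IFT-A subunit, moved in opposite directions under romidepsin. Its log2 fold was -0.48 for romidepsin over untreated cells and 0.40 for the combination over tamoxifen, with signals of 202 with romidepsin against 281 in untreated cells, and 367 with the combination against 278 with tamoxifen. A second probe set of WDR35 gave 0.20 and 0.21. The difference was not tested, with 1 array per condition.

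Of the probe sets that the annotation gives to several genes, which were not used above, 2 name a ciliary gene and had a drug-treated signal above that of the untreated array. The one shared by LOC100506124 and TTC21B, the IFT-A gene without a probe set of its own, read 74.9 with the combination, 8.24 with romidepsin, 7.01 with tamoxifen and 6.04 in untreated cells, and only the first lies above the floor. The one shared by TRIM59 and IFT80 read 108 with the combination, 101 with romidepsin, 185 with tamoxifen and 114 in untreated cells. Single arrays that stand apart within a group could not be looked for, since each group holds 1 array.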

How the results depend on the processing

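Of 112 values recomputed under 7 alternatives, 93 stayed close to the reported value and 19 moved. Counts of genes among them could not change direction under the rule used. A median that shifted by less than the spread between probe sets was taken as close whatever its sign. That 0 were marked as changed in direction was thus largely set by the rule. The departure from additive effects was put through the same alternatives after the data had been seen. With arrays centred on their medians, 2 genes rose with tamoxifen, 2 fell with the combination, and the combination median over untreated cells was 0.62. Quantile normalization left 1 rise with tamoxifen and 2 falls with the combination. Scaling to the spike-in controls moved the median of all genes to 0.33 for tamoxifen over untreated cells. It gave 11 tamoxifen rises with a member median of 0.77, and over romidepsin 14 combination rises, 0 falls and a median of 0.65. Of all genes called, the share that rose with tamoxifen was then 98.3%, against 77.5% as deposited, 63.2% with quantile normalization and 48% with centring, and over romidepsin 93.7%, against 64.2% as deposited. For the combination over untreated cells it was 72.8%, against 57.9%. A floor at the 75th percentile left 6 rises with romidepsin, 2 with tamoxifen, 13 with the combination and 3 for the combination over romidepsin, since a higher floor shrinks folds against dim arrays. The median over a gene's probe sets left 2 tamoxifen rises and 2 of the combination over romidepsin. Without probe sets marked _x_ or _s_, fewer genes were measured, and the combination gave 13 rises over untreated cells, 9 over tamoxifen and 0 falls over romidepsin. Beyond what a floor and fewer probe sets do by construction, the cause was not tested. Of 64 single calls, 47 were kept with centring, 49 with quantile normalization and 62 with spike-in scaling. The 25th percentile floor kept 64, the 75th 37 of 59 with a value, the median over probe sets 40 of 58 and the exclusion of _x_ and _s_ probe sets 43 of 47. Of these calls 0 changed sign. No paired analysis was possible because each group holds 1 array, and leaving out a replicate was not possible for the same reason. Signals near the floor limit what can be seen of falls in dim genes.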

Other observations

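The transition zone held genes that moved apart with the combination. B9D2, the B9-domain partner of B9D1, read 84 with the combination, 121 with romidepsin, 171 with tamoxifen and 259 in untreated cells, 3.08-fold lower with the combination, and B9D1 was 2.49-fold lower. MKS1, another B9-domain protein, had no 2-fold change. CEP290 and RPGRIP1L, larger proteins of the zone, were 4.49-fold and 2.04-fold higher. B9D2 was named after its values were seen, and no test was made.

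RFX2, a transcription factor of ciliary genes, read 272 with the combination, 329 with romidepsin, 141 with tamoxifen and 148 in untreated cells. It was 2.22-fold higher with romidepsin alone over untreated cells.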
